A study of Mus musculus with 6 samples.

Results

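The IGF axis was examined through acetylation of histone H3 (H3ac) at 10 of its genes in cultured mesenchymal stem cells (MSCs) of mice. The genes were the ligand gene Igf1, the receptor genes Igf1r and Igf2r, the adaptor genes Irs1 and Irs2, and the binding protein genes Igfbp2, Igfbp3, Igfbp4, Igfbp5 and Igfbp7. A region of the H3ac table was taken as a member when it overlapped the annotated body of one of these genes, extended by 5 kb on both sides. This rule took 27 of the 24431 regions, and the rule itself uses no H3ac value. No gene lacked a region, since each of the 10 had at least 1, including 1 over its annotated start.

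IGF1 is a secreted peptide that binds the receptor tyrosine kinase IGF1R, and the signal passes through the adaptors IRS1 and IRS2 to PI3K and AKT. IGF2R, also known as the mannose 6-phosphate receptor, has no kinase activity and carries IGF2 to lysosomes, and the IGFBPs bind IGFs outside the cell and set how much ligand reaches the receptor. In bone the pathway is known for its part in the growth and differentiation of stromal and osteoblast cells. Acetylation of histone H3 is a mark of open, active promoters and enhancers, and it is not a measure of transcription.

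CUT&RUN, in which an antibody directs a nuclease to marked chromatin in permeabilised cells, was carried out in 3 groups of 2 libraries with an H3ac antibody. Young MSCs came from mice aged 3 to 5 months and Old MSCs from mice aged 18 to 22 months, and neither group was treated. OldAcetate MSCs, also from mice aged 18 to 22 months, were given sodium acetate at 5 mM for 3 days. All cells were cultured under 2% oxygen, and no genetic change is named in the labels. The groups allow H3ac to be compared between ages and, in old cells, with and without acetate, which cells can turn into acetyl-CoA, the donor of acetyl groups.

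Library totals ran from 2163351 to 3039481 reads, and values are in RPM, the reads of a region relative to all reads of its library, without division by region length. The share of reads in the 24431 regions was 57.8% to 64.8% in Young, 45.9% to 49.9% in Old and 56.3% to 57.3% in OldAcetate, so values as given carried a shift common to most regions. A second, scaled version of each library therefore had its median log2 deviation from the region means subtracted. Changes in RPM as given and changes after scaling are both reported below, the second being changes relative to the typical region. Whether the common shift came from the cells or from the libraries was not tested. In a bulk sample, fewer acetylated cells and less H3ac per cell cannot be told apart. As a check of the cell type, a region lay over the start of 9 of 9 stromal marker genes, at 1.88 to 3.70 RPM per kb. Within 5 kb of the gene body, no region was found at Ptprc, Itgam and Cd3e or at the endothelial genes Cdh5 and Tek, whereas Spi1, Cd68, Csf1r, Pecam1 and Kdr each had at least 1. Those of Spi1 and Cd68 lay over the start, at 1.78 and 2.19 RPM per kb. That of Csf1r missed the gene start but lay over the start of an annotated Csf1r transcript, at 3.06 RPM per kb. Away from any annotated transcript start, Pecam1 and Kdr had regions at 1.97 and 2.86 RPM per kb. All of these levels but that of Spi1 were within the stromal range.

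Upstream sequences are shown for the 6 genes with the highest mean RPM in the region over their start. They were read from RefSeq on GRCm38.p6, each ends just before the RefSeq start of its gene or, for Igfbp5, at the GENCODE start 19 bp upstream of it, and all lie within the start region of their gene. Capitals mark the GC box GGGCGG and its reverse complement CCGCCC, the letters that Sp1-like factors are known to recognise, and the TATA box TATAAA was searched on both strands as well. The intervals are chr17:12769707-12769956, minus strand for Igf2r, chr7:67952007-67952256, plus strand for Igf1r, chr8:11008930-11009179, minus strand for Irs2, chr1:82291440-82291689, minus strand for Irs1, chr5:77408046-77408295, minus strand for Igfbp7, and chr1:72874885-72875115, minus strand for Igfbp5. The last holds 231 bases, where the other five hold 250.
Igf2r: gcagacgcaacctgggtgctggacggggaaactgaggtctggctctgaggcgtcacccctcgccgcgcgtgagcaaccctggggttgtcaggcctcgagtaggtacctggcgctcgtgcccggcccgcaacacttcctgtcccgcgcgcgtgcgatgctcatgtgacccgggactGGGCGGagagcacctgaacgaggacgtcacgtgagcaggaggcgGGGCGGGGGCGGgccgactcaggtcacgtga
Igf1r: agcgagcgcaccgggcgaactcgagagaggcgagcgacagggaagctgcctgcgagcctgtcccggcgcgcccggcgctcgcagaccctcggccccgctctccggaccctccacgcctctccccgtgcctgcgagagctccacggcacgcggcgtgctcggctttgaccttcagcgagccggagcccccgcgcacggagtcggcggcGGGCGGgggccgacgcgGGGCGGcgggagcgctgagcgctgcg
Irs2: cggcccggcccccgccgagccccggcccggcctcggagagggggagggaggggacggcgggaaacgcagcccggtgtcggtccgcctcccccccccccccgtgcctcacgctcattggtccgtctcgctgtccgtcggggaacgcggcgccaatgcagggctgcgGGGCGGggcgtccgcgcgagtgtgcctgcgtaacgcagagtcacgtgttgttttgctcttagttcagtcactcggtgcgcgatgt
Irs1: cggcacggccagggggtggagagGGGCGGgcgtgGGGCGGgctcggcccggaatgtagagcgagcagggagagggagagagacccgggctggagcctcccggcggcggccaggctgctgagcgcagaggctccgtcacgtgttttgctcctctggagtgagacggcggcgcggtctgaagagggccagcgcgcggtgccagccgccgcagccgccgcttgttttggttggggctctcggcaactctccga
Igfbp7: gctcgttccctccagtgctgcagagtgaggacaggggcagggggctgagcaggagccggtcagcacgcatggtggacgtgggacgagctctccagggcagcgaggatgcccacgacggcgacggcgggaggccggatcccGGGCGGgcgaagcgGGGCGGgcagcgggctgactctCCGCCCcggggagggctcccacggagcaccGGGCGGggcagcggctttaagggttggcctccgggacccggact
Igfbp5: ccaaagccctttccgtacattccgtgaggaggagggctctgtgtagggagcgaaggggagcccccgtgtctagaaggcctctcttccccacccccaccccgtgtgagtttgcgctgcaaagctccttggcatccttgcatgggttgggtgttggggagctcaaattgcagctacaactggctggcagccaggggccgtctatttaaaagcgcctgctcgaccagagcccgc

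The GC box was present within the 250 upstream bases of 6 of the 10 genes, compared with 32.7% of 32851 mouse promoters, and Igfbp7 held 4 copies over both strands. The E box CACGTG, also searched on both strands and not overlapping a GC box here, was found in 4 of the 10, namely Igf2r, Irs1, Irs2 and Igfbp2, compared with 6.02% of promoters. The core letters TGACG of the cyclic AMP response element, searched on both strands, were found in 2 of the 10, Igf2r and Irs1, compared with 17.8% of promoters. At Irs1 they shared bases with an E box. Igf2r held 2 copies, and only the copy nearer the gene start shared bases with an E box. TATAAA was found at Igfbp4 alone and in 12.4% of promoters. CpG dinucleotides numbered 42 at Igf1r, 34 at Irs2, 32 at Igfbp3, 28 at Irs1, 27 at Igf2r and 26 at Igfbp7, where the median of all promoters was 6. Igfbp5 had 10, and Igf1, read at a RefSeq start 2846 bp downstream of the annotated one, had 5. These matches describe the letters in the window and were not tested for factor binding.

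The 27 regions covered 436 kb. Their median length was 10500 bp, compared with 5500 bp for all regions. A length of 20 kb was reached by 9 of the 27 (33.3%), compared with 6.99% of all regions and 9.69% of those over a protein-coding start. These 9 included regions of 37500, 21000, 33000 and 38500 bp of the single gene Igf1r. The median level per length was 2.67 RPM per kb for members and 2.70 for all regions. Of the 27, 10 lay over a gene start, 10 in introns, 3 over exons, 3 beyond the gene end and 1 over the start of a noncoding Igf1r transcript. Start regions had a median of 3.23 RPM per kb, against 2.37 in the 17 other regions and 3.01 in all regions over the start of a protein-coding gene. Region names in the table end in Y, O, AC or a mix of these, taken here as the groups in which a region was called, and 22 of the 27 (81.5%) carried all 3 codes, near the 80.6% of all regions. The exceptions were a pair of Igf1 intron regions and an Igfbp2 intron region without O, an Igf2r exon region without AC, and an Igfbp4 region with Y alone.

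**Figure D1:**
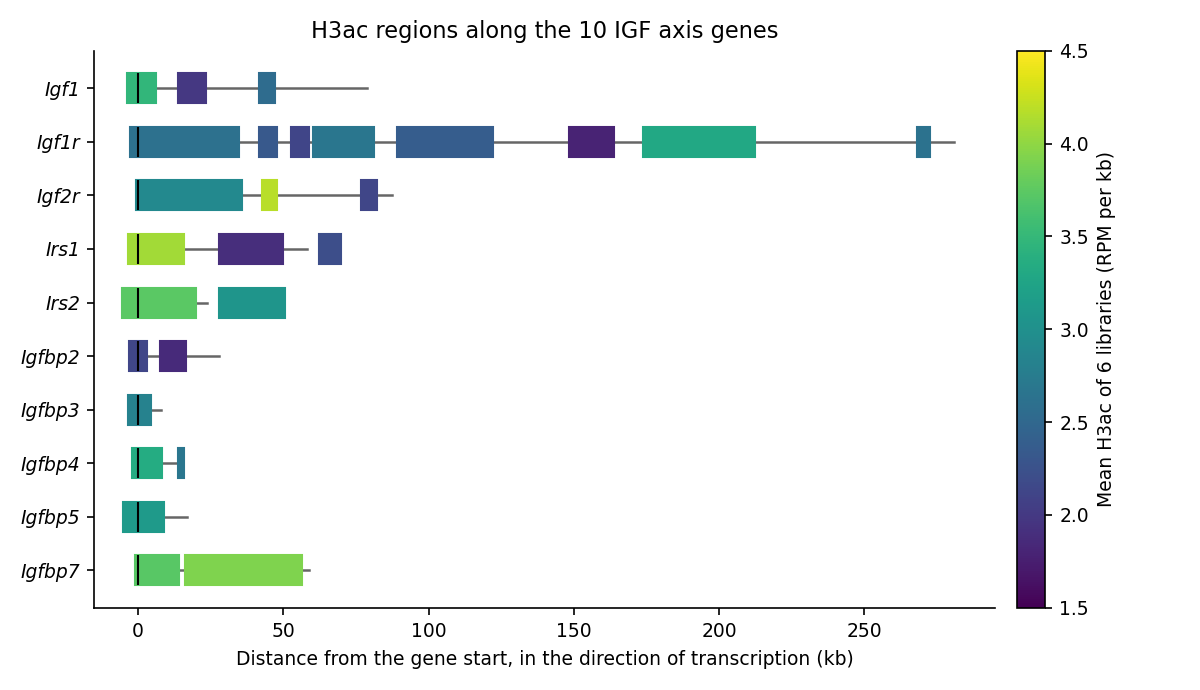
Each row is 1 gene, drawn as a line from its start (vertical tick) to its end in kb along the direction of transcription, and each box is an H3ac region coloured by its mean over the 6 libraries in RPM per kb. All 10 genes carry a box over the start, Igf1r carries 8 boxes, and levels run from 1.79 RPM per kb in an Igf1r intron to 4.18 over Igf2r exons.

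Igf1, which encodes the ligand, had 3 regions. The region over its start (chr10:87854501-87864500), which also holds the start of the antisense gene Igf1os, measured 39.8 and 38.0 RPM (Young), 27.3 and 27.8 (Old), and 38.3 and 37.5 (OldAcetate). Both Old libraries lay below every Young and every OldAcetate library, and Young and OldAcetate overlapped. As given, the log2 fold change was -0.49 ± 0.18 (SE) for Old vs Young and 0.45 ± 0.18 for OldAcetate vs Old, with adjusted p = 0.0637 and 0.183 by limma. After scaling the same changes were -0.14 ± 0.16 and 0.21 ± 0.16, with adjusted p = 0.956 and 0.891 by limma, so neither passed the threshold of 0.05.

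An intron region of Igf1 (chr10:87900001-87905500), 44.5 kb from the start, separated the groups differently. It measured 21.4 and 17.6 RPM (Young), 9.71 and 10.3 (Old), and 10.4 and 14.6 (OldAcetate). Every Old library and every OldAcetate library lay below both Young libraries, and the lower OldAcetate value was just above the higher Old value. Old was lower than Young as given, with a log2 fold change of -0.92 ± 0.26 (SE, adjusted p = 0.0231, limma), and this was the largest change in that comparison among the 27. The call was lost after scaling (-0.57 ± 0.25, adjusted p = 0.874, limma), and as given it was lost without Young replicate 1 and without Old replicate 2. Between 21 and 65 reads lay behind each value.

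The remaining Igf1 intron region, at chr10:87872001-87881500, measured 23.4 and 17.6 RPM (Young), 17.1 and 12.3 (Old), and 21.8 and 20.9 (OldAcetate). Old lay below the other groups, which overlapped. Its scaled OldAcetate vs Old change of 0.30 ± 0.21 was the largest positive one of the 27 (adjusted p = 0.884, limma). Summed over its 3 regions, Igf1 held 78.8 ± 8.09 RPM (Young), 52.3 ± 2.53 (Old) and 71.8 ± 1.72 (OldAcetate), each as mean ± SD of n = 2, and its Old mean, 66.3% of Young, was the lowest such percentage among the 10 genes. The exact two-sided permutation test of this sum gave p = 0.333, the smallest that 2 against 2 libraries allow.

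Igf1r encodes the receptor kinase and is the longest of the genes, at 281 kb. Its 8 regions spanned 162 kb in all and covered 56.7% of its body. Over the start (chr7:67950001-67987500) the values were 118 and 96.0 RPM (Young), 81.4 and 93.9 (Old), and 104 and 93.4 (OldAcetate). Old lay below Young, and the OldAcetate range overlapped both. The scaled change was 0.07 ± 0.10 for Old vs Young and -0.06 ± 0.10 for OldAcetate vs Old, with adjusted p = 0.968 and 0.960 by limma.

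The largest Igf1r value came from a 38.5 kb region at chr7:68126501-68165000, centred 193 kb into the gene and covering the start of the retained-intron transcript Igf1r-203. It measured 161 and 133 RPM (Young), 103 and 103 (Old), and 140.1 and 123 (OldAcetate). Old fell by 0.50 ± 0.12 (SE) on the log2 scale as given (adjusted p = 0.0121, limma), with both Old libraries below the other four. An intron region at chr7:68042001-68075000 measured 107 and 85.8 RPM (Young), 61.0 and 68.0 (Old), and 74.3 and 73.4 (OldAcetate). Old was lower here too as given (-0.57 ± 0.14, adjusted p = 0.0131, limma). Both calls were lost without Young replicate 1, the library with the highest share of reads in regions, and the first was also lost without Old replicate 2. After scaling both were lost too (-0.15 ± 0.09 and -0.22 ± 0.11, adjusted p = 0.904 and 0.894, limma). In the other direction, the intron region at chr7:68005501-68011500 was the only member whose Old mean exceeded its Young mean as given, with 13.5 and 10.2 RPM (Young), 12.5 and 13.1 (Old), and 16.1 and 10.8 (OldAcetate). Its ranges overlapped and its scaled change of 0.47 ± 0.25 had an adjusted p of 0.894 (limma). Of the other intron regions, 3 (chr7:67994501-68000500, chr7:68013001-68034000 and chr7:68101001-68116500) had means of 13.9, 56.3 and 27.8 RPM over all libraries, and in each Old lay below Young.

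For OldAcetate vs Old, the scaled changes of the 8 Igf1r regions ran from -0.48 at the last intron region (chr7:68221001-68225500) to 0.11 at the retained-intron start, and none was called. The last intron region measured 15.1 and 13.5 RPM (Young), 11.6 and 11.5 (Old), and 9.41 and 10.0 (OldAcetate), and its OldAcetate libraries lay below those of Old even as given. Summed over the gene, Igf1r held 492 ± 67.5 RPM (Young), 367 ± 13.4 (Old) and 418 ± 30.5 (OldAcetate), each as mean ± SD of n = 2. The Old mean was 74.5% of Young and the OldAcetate mean 114% of Old.

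Igf2r encodes the receptor that removes IGF2. Its start region (chr17:12734001-12770500) spans 36.5 kb and also holds the start of Airn, the antisense noncoding RNA that is known to silence the paternal copy of Igf2r, and reads were not separated by allele. It measured 129 and 98.8 RPM (Young), 97.5 and 92.3 (Old), and 109 and 111 (OldAcetate). Old lay below Young by a narrow margin and below OldAcetate by a wider one, while OldAcetate overlapped Young. The scaled change was 0.10 ± 0.10 for Old vs Young and -0.03 ± 0.10 for OldAcetate vs Old (adjusted p = 0.946 and 0.985, limma). In both exon regions all 3 groups overlapped. The one at chr17:12687501-12693000 measured 16.8 and 8.99 RPM (Young), 15.3 and 7.56 (Old), and 11.8 and 10.0 (OldAcetate). The other, at chr17:12722001-12727000, which had the highest level per length of all 27 at 4.18 RPM per kb, measured 27.6 and 19.6 RPM (Young), 21.7 and 15.9 (Old), and 22.2 and 18.4 (OldAcetate).

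Irs1, the adaptor gene with the highest start level per length (4.08 RPM per kb), gave tight replicates. Its start region (chr1:82275501-82295000) measured 84.9 and 88.6 RPM (Young), 68.0 and 65.2 (Old), and 84.7 and 85.9 (OldAcetate). Both Old libraries were separated from the other four, and OldAcetate overlapped Young. As given the log2 fold change was -0.38 ± 0.14 for Old vs Young and 0.36 ± 0.14 for OldAcetate vs Old, with adjusted p = 0.0627 and 0.174 by limma. After scaling they were -0.03 ± 0.11 and 0.12 ± 0.11 (adjusted p = 0.990 and 0.919, limma). Of its other regions, that beyond the gene end (chr1:82221501-82229000) measured 16.8 and 15.5 RPM (Young), 18.0 and 13.9 (Old), and 18.8 and 16.3 (OldAcetate), with all groups overlapping. Its intron region (chr1:82241501-82263500) measured 50.7 and 43.3 RPM (Young), 40.7 and 35.0 (Old), and 42.0 and 38.8 (OldAcetate), and both Old and OldAcetate lay below Young.

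Irs2 had a start region (chr8:10988501-11014000) that also holds the start of 9530052E02Rik. Its values were 114 and 96.0 RPM (Young), 94.3 and 70.4 (Old), and 101 and 94.7 (OldAcetate). The Old libraries lay below the rest but differed from each other by more than they differed from their nearest neighbours, and the scaled changes were -0.01 ± 0.10 and 0.02 ± 0.10 (adjusted p = 0.998 and 0.988, limma). Downstream of Irs2, 4181 bp from the gene end and over the start of the gene model Gm44956, a region at chr8:10958001-10980500 measured 81.9 and 72.3 RPM (Young), 75.8 and 58.5 (Old), and 57.8 and 67.2 (OldAcetate). Here OldAcetate reached neither Young library, and it overlapped Old. Its scaled OldAcetate vs Old change of -0.33 ± 0.12 had the lowest unadjusted p of the 27 in that comparison, 0.00754 by limma, and did not pass the threshold (adjusted p = 0.731, limma).

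Of the binding protein genes, Igfbp7 was covered most completely, with 2 regions over 92.8% of its body. IGFBP7 is a secreted protein with weaker affinity for IGFs than the classical IGFBPs. The start region (chr5:77394001-77409000) measured 63.5 and 56.4 RPM (Young), 47.6 and 49.7 (Old), and 61.8 and 55.5 (OldAcetate). Old lay below both other groups, which overlapped, and the scaled changes were 0.05 ± 0.13 and 0.03 ± 0.13 (adjusted p = 0.981 and 0.991, limma). Its other region, 40.5 kb over the later exons (chr5:77351501-77392000) and overlapping the gene model Gm34648, held the most reads of all members, at 186 and 156 RPM (Young), 152 and 130.1 (Old), and 172 and 156 (OldAcetate). Old again lay below both other groups. Its level per length was 3.92 RPM per kb, beside 3.72 at the start.

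Igfbp4 and Igfbp5 encode binding proteins that bone cells are known to secrete, the first an inhibitor of IGF action. The Igfbp4 start region (chr11:99039001-99049500) measured 45.4 and 31.9 RPM (Young), 30.5 and 29.4 (Old), and 31.3 and 42.1 (OldAcetate). Old lay just below both other groups, whose replicates differed widely, and the scaled changes were 0.01 ± 0.17 and 0.03 ± 0.17 (adjusted p = 0.998 and 0.991, limma). A region of 2 kb downstream of Igfbp4 (chr11:99055001-99057000) measured 8.88 and 5.72 RPM (Young), 6.01 and 4.77 (Old), and 3.36 and 3.34 (OldAcetate), from 8 to 27 reads. OldAcetate lay below every other library, and its scaled changes of -0.84 ± 0.40 against Old and -0.88 ± 0.40 against Young were the largest in size of the 27, with adjusted p = 0.778 and 0.964 by limma.

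The single Igfbp5 region (chr1:72866001-72880000) measured 48.7 and 44.5 RPM (Young), 46.2 and 36.6 (Old), and 41.7 and 44.6 (OldAcetate). All 3 groups overlapped. The Old mean of Igfbp5 was 88.8% of Young, the highest percentage of the 10 genes, and the scaled changes were 0.17 ± 0.14 and -0.17 ± 0.14 (adjusted p = 0.929 and 0.908, limma).

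Igfbp3, whose product carries most of the circulating IGF, also had 1 region (chr11:7209501-7217500). Its values were 29.0 and 19.2 RPM (Young), 18.0 and 22.3 (Old), and 19.2 and 27.9 (OldAcetate), and all groups overlapped. The scaled changes were 0.12 ± 0.21 and -0.04 ± 0.21 (adjusted p = 0.971 and 0.992, limma).

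Igfbp2 had the lowest start level of the 10 genes, both in RPM and per length (2.13 RPM per kb). Its start region (chr1:72821501-72827500) measured 14.5 and 10.2 RPM (Young), 12.0 and 9.94 (Old), and 16.1 and 13.8 (OldAcetate). OldAcetate lay above Old and overlapped Young, and its scaled change against Young, 0.39 ± 0.25, was the largest positive one of the 27 in that comparison (adjusted p = 0.974, limma). The intron region (chr1:72832001-72841000) measured 22.7 and 20.0 RPM (Young), 14.8 and 11.5 (Old), and 16.1 and 15.4 (OldAcetate). In the intron Young lay above all other libraries, and the as-given Old vs Young change of -0.69 ± 0.24 had an adjusted p of 0.0516 by limma.

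**Figure D2:**
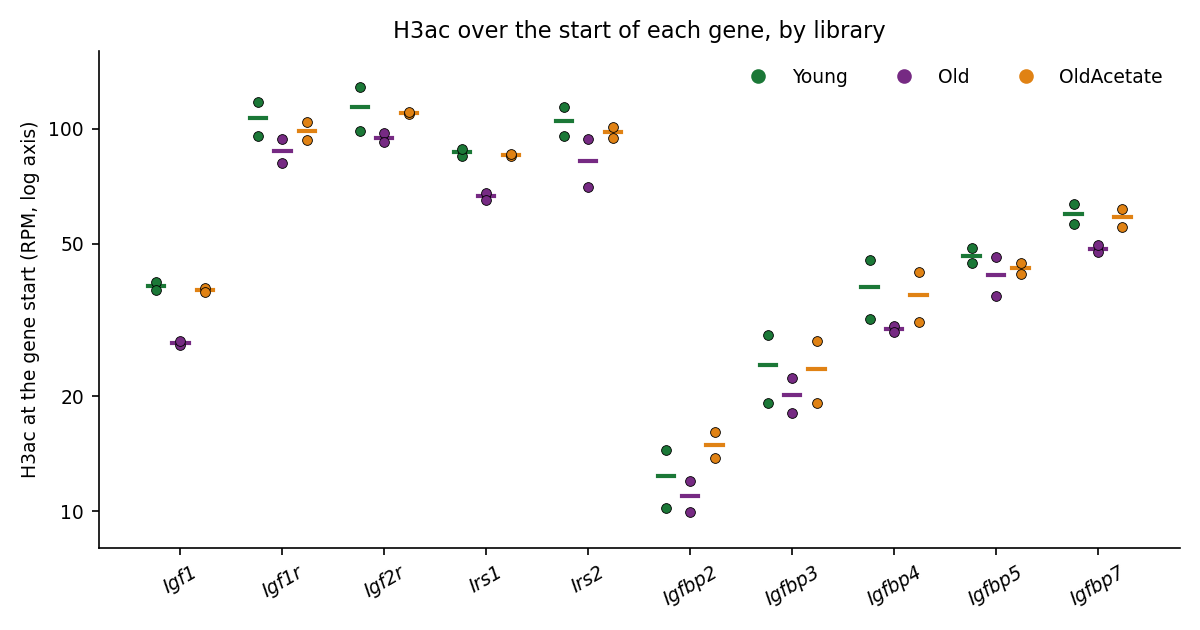
Each point is 1 library and each bar the mean of the 2 libraries of a group, for the region over the start of each gene, in RPM on a log axis. At Igf1 and Irs1 both Old points sit below all others with little spread, while at Igfbp3, Igfbp5 and Igfbp2 the points of Young and Old overlap.

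By start level per length the order was Irs1, Irs2, Igfbp7, Igf1, Igfbp4, Igfbp5, Igf2r, Igfbp3, Igf1r and Igfbp2, from 4.08 to 2.13 RPM per kb. Only the steps from Igfbp7 to Igf1 and from Igf1r to Igfbp2 exceeded the pooled SD between libraries of a group, so the other neighbours in this order did not differ beyond their spread. Region length enters these values, since the start regions of Igf1r and Igf2r span 37.5 and 36.5 kb.

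Across the 27 regions, Old vs Young was compared first. After scaling, limma called 0 members at an adjusted p under 0.05, where 0.00819% of all regions were called. At an unadjusted p under 0.05 it found 1 member, the Igf1 intron region (3.70% of members against 5.54% of all regions), and edgeR with RLE factors called 0 and found 1, where it found 5.19% of all regions. The median scaled change was 0.04 on the log2 scale for the members and 0.00 for all regions. As given, 3 of 27 members (11.1%) were called lower in Old, with 9.5% of all regions called in that direction. These were the Igf1 intron region and both Igf1r regions described above, and none was over the annotated start of its gene. edgeR without scaling factors called 5 (18.5%) against 10.3% of all regions, adding the Igf1r intron region at chr7:68013001-68034000 and the Igfbp2 intron region. As given, limma called 0 members without Young replicate 1, where it called 0.037% of all regions in either direction, and 1 (3.70%) without Old replicate 2, against 2.03%. It called 8 (29.6%) without Young replicate 2, against 8.74% of all regions, and 5 (18.5%) without Old replicate 1, against 13.3%. Without OldAcetate replicate 1 or 2 it called 3 (11.1%), against 2.64% and 2.96%. Both Old libraries lay below both Young libraries in 18 of 27 members (66.7%), with 60.2% of all regions doing so, and no member had Old above Young. The members' median change as given was -0.31, and that of all regions was -0.35. Summed over its regions, each gene had an Old mean between 66.3% (Igf1) and 88.8% (Igfbp5) of its Young mean, and an OldAcetate mean between 104% (Igfbp5) and 137% (Igf1) of its Old mean. With the scaling applied, the Old vs Young sums ran from -0.24 (Igf1) to 0.17 (Igfbp5) on the log2 scale. Of the reads in regions, members took 0.234% ± 0.011 (Young), 0.235% ± 0.00052 (Old) and 0.228% ± 0.0033 (OldAcetate), each as mean ± SD of n = 2.

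For OldAcetate vs Old, limma called 0 members after scaling, as it called 0% of all regions. At an unadjusted p under 0.05 there were 2 members (7.41%), the downstream regions of Irs2 and Igfbp4, compared with 6.24% of all regions, and edgeR with RLE factors called 0 and found 1, where it found 5.34% of all regions. As given, limma called 0 members higher in OldAcetate, where it called 0.311% of all regions. Its unadjusted count as given was 4 (14.8%), against 18% of all regions, and edgeR without factors likewise called 0 and found 4, against 16.6% of all regions. OldAcetate lay above Old without overlap in 14 of 27 members (51.9%), near the 47.1% of all regions. It lay below Old in 2 (7.41%), the last Igf1r intron region and the region downstream of Igfbp4, against 3.46% of all regions. Median changes as given were 0.20 for members and 0.24 for all regions, and after scaling -0.04 and 0.00.

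OldAcetate vs Young gave 0 calls after scaling (0% of all regions) and 0 as given in the lower direction (0% of all regions) by limma. Unadjusted p under 0.05 was reached by 3 members after scaling (11.1%), the Igf1 intron region, an Igf1r intron region (chr7:68042001-68075000) and the region downstream of Igfbp4, compared with 5.08% of all regions, and by 5 as given (18.5%), compared with 6.1% of all regions. edgeR called 0 in both versions. At an unadjusted p under 0.05 it found 3 members (11.1%) with RLE factors, against 6.76% of all regions, and 6 (22.2%) without factors, against 7.96%. OldAcetate lay below Young without overlap in 9 of 27 members (33.3%), compared with 29.8% of all regions. None of these 9 was a start region, whereas 24.8% of all regions over a protein-coding start lay below Young. They made up 52.9% of the 17 other members, against 4385 of 12733 regions away from a protein-coding start.

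**Figure D3:**
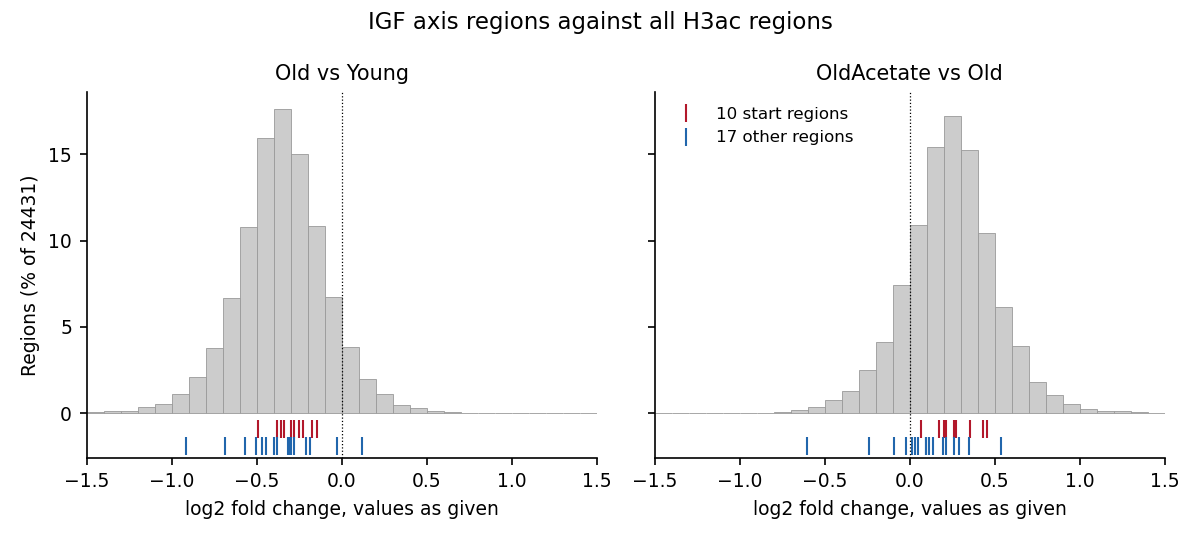
Grey bars give the share of all 24431 regions by log2 fold change of RPM as given, in steps of 0.1, and ticks under the axis mark the 10 start regions (red) and the 17 other member regions (blue). All member ticks fall within the range of the bars, with medians of -0.31 and -0.35 for Old vs Young, and of 0.20 and 0.24 for OldAcetate vs Old.

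Start regions and the other members were set side by side. In OldAcetate vs Old the median scaled change was 0.03 for the 10 starts and -0.14 for the 17 others. Above 0 were 6 of 10 and 4 of 17. Over the whole table, 58.7% of regions over a protein-coding start and 42.5% of the others were above 0. Their medians were 0.04 and -0.05, so the member starts lay near the table and the 17 others below it. Neighbouring regions of a gene count separately here, and Igf1r alone holds 8 member regions, 1 of them over its start. Against Young, OldAcetate had a median of 0.08 at the starts, all 10 above 0, and of -0.19 at the others, 4 of 17 above 0. The table as a whole had the same order with a smaller gap, since 58.6% of regions over a protein-coding start and 42.7% of the others were above 0 in OldAcetate vs Young, with medians of 0.04 and -0.05. These 2 comparisons share the OldAcetate libraries. Signs at single regions depended on single libraries in OldAcetate vs Young. Without Young replicate 2, 5 of 10 starts and 4 of 17 others were above 0. Without OldAcetate replicate 2, the counts were 7 of 10 and 7 of 17. With each library left out in turn, the median of the starts ran from -0.0014 to 0.087 and that of the others from -0.25 to -0.06. As given, 9 of 10 starts and 14 of 17 others were lower in OldAcetate than in Young. Over the whole table, 7448 of 11698 regions over a protein-coding start and 9457 of 12733 other regions were lower.

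**Figure D4:**
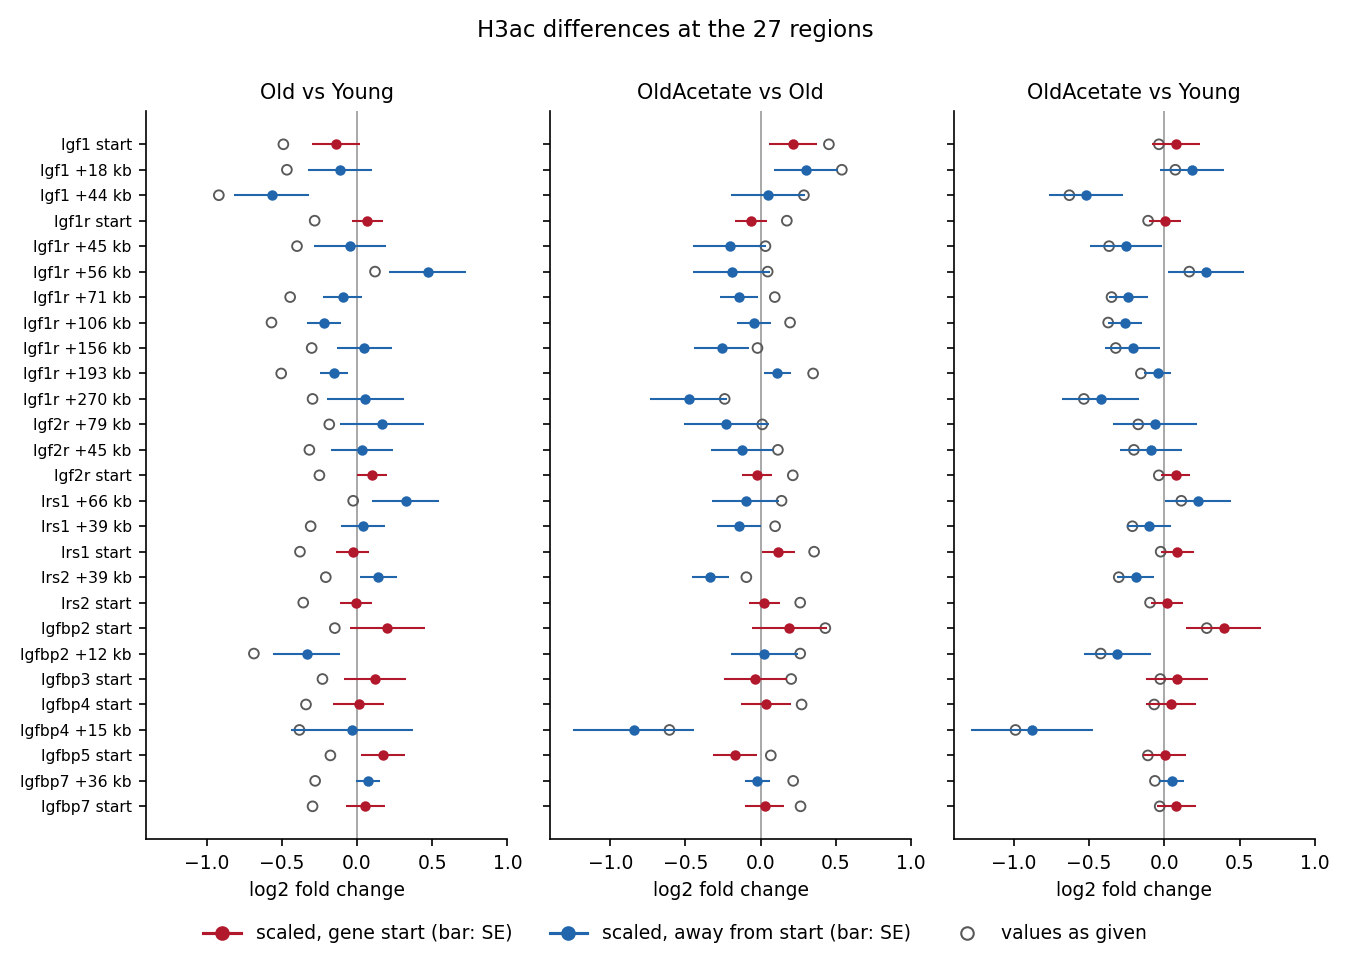
Filled points give the scaled log2 fold change of each member region with its standard error (bars), red for regions over the gene start and blue for the others named by distance from the start in kb, and open points give the change of RPM as given. Open points lie left of the filled ones in both panels that compare with Young and right of them in the other, and the widest bars belong to the region downstream of Igfbp4, where -0.84 ± 0.40 was measured in OldAcetate vs Old.

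Other genes of the pathway were examined by the same rule. Of 45 genes, 41 had at least 1 region and 35 had 1 over the start. Those without a region were Igf2, the ligand cleared by IGF2R, the binding protein gene Igfbp1, Igf2bp1, which encodes an mRNA-binding protein, and the adaptor gene Irs4. Each of the 41 genes was represented by 1 region, that over its start where there was one. After scaling, limma called 0 of the 41 in each comparison, and edgeR with RLE factors also called 0. An unadjusted p under 0.05 was reached by 4, 2 and 3 of the 41 genes with either tool. Of all regions, 5.54%, 6.24% and 5.08% reached it by limma, and 5.19%, 5.34% and 6.76% by edgeR. The lowest p at a start in Old vs Young belonged to Stc1, whose product stanniocalcin-1 inhibits the IGFBP-cleaving protease PAPP-A (-0.51 ± 0.19, adjusted p = 0.852, limma). In OldAcetate vs Old it belonged to Pappa itself (0.41 ± 0.18, adjusted p = 0.774, limma). In OldAcetate vs Young it was Sos1, which activates RAS downstream of the receptor (0.47 ± 0.20, adjusted p = 0.964, limma). As given, 12 of the 41 were called lower in Old than in Young by limma and 0 higher. This was 29.3%, against 9.5% of all regions and 11.5% of all regions over a protein-coding start. The 41 regions had a median of 32.0 RPM, compared with 15.7 for all regions. The 27 members had a median of 34.8 RPM, and 11.1% of them were called. Whether read depth bears on these shares was not tested. edgeR without factors called 13 (31.7%), against 10.3% of all regions. The limma calls were lost without Young replicate 1 or without Old replicate 2. Pathway genes were still called without Young replicate 2, Old replicate 1 or either OldAcetate library. The 12 were the protease genes Pappa2 and Htra1, the inhibitor gene Stc1, the genes Ptpn1, Socs3 and Enpp1, which encode inhibitors of receptor signalling, and Pik3r2, Pdpk1, Akt2, Rheb, Gsk3a and Foxo1 of the PI3K and AKT branch. The median as-given change over the 41 genes was -0.39 for Old vs Young, and 0.28 for the comparison with acetate.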

How the data were processed

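H3ac CUT&RUN libraries of mouse MSCs were analysed in 3 groups (Young, Old and OldAcetate) of 2 libraries each, assigned from the labels. The labels do not state that libraries of a group came from separate animals, so p-values measure the spread between these libraries, which may be technical. The labels name Bowtie2, Picard and mm10, while the caller of the regions, versions and any use of the yeast DNA added in the stop buffer are not given in the sources used here.

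The table deposited by the authors is named as RPKM, but its values are RPM: 100% of the values in every library were whole multiples of a single step (tolerance 0.01) whatever the region length, and whole reads were recovered from them. No detail beyond the table's own coordinates was taken as the authors' method, and the study text provided describes other experiments.

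Regions were assigned to genes with GENCODE M21 on GRCm38, by overlap with the gene body extended by 5 kb. The nearest region outside this limit lay 8837 bp from Igf2r (18.3 RPM), and the farthest inside lay 4181 bp from Irs2 (68.9 RPM). Upstream sequences came from RefSeq on GRCm38.p6, and all 10 genes matched. The log2(RPM + 0.5) values, which understate changes of low regions, were fitted with limma 3.58.1 (R 4.3.3) over all 24431 regions and 6 libraries in a single fit of group means (eBayes with trend and robust, Benjamini-Hochberg threshold 0.05). Each library was scaled by its median deviation from the region means, by -0.25 to 0.24 on the log2 scale. The median of all regions shifted by up to 0.35 without scaling, so both versions are given. No region was removed. The fits were tested on simulated data. Members and gene lists were chosen with earlier results of these data known. Of the marker genes, 1 is not reported here. The rule for named genes takes all 10 members, their start regions in every library, other regions where called or extreme within a gene, up to 6 upstream sequences by highest start RPM, and the pathway gene with the lowest p at a start in each comparison. Regions named beyond this rule were chosen after their values were seen.

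The results were recomputed on values as given, after quantile normalization, with pseudocounts of 0.1 and 1, without the 25% of regions lowest by mean, with a replicate block, on the 4 libraries compared, with plain eBayes, at a threshold of 0.01, with gene limits of 0 and 10 kb, without each library in turn and by edgeR 4.0.16 with RLE factors on recovered reads. Intervals from reads cover counting error only: at the 8 reads of the lowest value counting error alone was 35.4% of it, and at the 566 of the highest 4.2%.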

Additional observations from a re-analysis of the deposited data

How the results depend on the processing

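Scaling was the choice that mattered most. Without it, limma called 3 of 27 members in Old vs Young in place of 0, and edgeR without factors, added after seeing the data, called 5. The median change of the members was then -0.31 in place of 0.04 for Old vs Young, 0.20 in place of -0.04 for OldAcetate vs Old, and -0.11 in place of 0.00 for OldAcetate vs Young, as the construction of the scaling implies. Of the 13 single regions followed, the sign of the change without scaling differed in 7, 5 and 9, in that order of comparisons. With libraries left out in turn, medians ran from -0.0089 to 0.098 (Old vs Young), from -0.080 to -0.043 (OldAcetate vs Old) and from -0.123 to 0.0312 (OldAcetate vs Young), and the scaled calls remained at 0. The sign of the scaled change held under every omission in 12, 14 and 16 of the 27 regions.

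The main fit did not pair libraries by their replicate number. Deviations of same-numbered libraries correlated at 0.0093, -0.034 and -0.043 across regions. With the counting error of these reads, such values cannot decide whether same-numbered libraries shared a source. With the replicate number as a block the scaled calls were 0, 0 and 0 and the medians 0.04, -0.04 and 0.00. As given and with the block, added after seeing the data, the 3 called regions had adjusted p = 0.0176 (Igf1 intron), 0.00568 and 0.00379 (Igf1r) by limma. All other settings left the counts at 0 and the medians within the spread between libraries. Depth limited the small regions most, with 8 reads in the lowest value.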
